A study of Mus musculus with 6 samples.

Results

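The 10 genes examined here encode transcription factors that are known to hold back the muscle program, namely the Twist factors Twist1 and Twist2, the Snail factors Snai1 and Snai2, the Zeb factors Zeb1 and Zeb2, musculin (Msc), and the Sox factors Sox4, Sox8 and Sox9. They were chosen by gene symbol, and all 10 of them were found among the 18943 genes of the deposited table. The RNA-seq data comprised 6 libraries of muscle stem cells (MuSCs) from wild-type C57BL/6 mice aged 8 weeks, which were purified by FACS and cultured for 5 days. The cells received DMSO, the solvent control, endothelin-3 (ET-3) or neurotensin (NT), with 2 libraries per group, and the sample labels give 100 nM for both peptide ligands, whereas the paper's methods name higher doses that differ between the ligands. The series design speaks of triplicates, and the paper describes points of its principal component plot as means of several biological samples. Nothing in the labels tells whether the libraries of a group came from separate mice or cultures, so the p-values measure the spread between these libraries only.

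Muscle differentiation is driven by MYOD and its relatives, basic helix-loop-helix (bHLH) proteins that pair with E proteins and bind the DNA word CANNTG, the E box. Twist proteins and musculin are bHLH proteins that compete for E proteins or E boxes, whereas Snail and Zeb proteins are zinc finger repressors that occupy a subset of E boxes, with CAGGTG as the core. SOX8 and SOX9 bind DNA through an HMG box and are known to restrain MYOD and myogenin in satellite cells, and SOX4 is a related HMG box factor of mesenchymal and progenitor cells.

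The table holds rounded products of a read count and a factor that is common to all genes of a library, here called scaled reads. They summed to between 4214458 and 4600575 per library, which corresponds to 3629256 to 5396233 reads on genes after division by the fitted factors of 0.781 to 1.19. The 9 muscle stem cell and myoblast markers summed to 10984 and 11990 scaled reads in the DMSO pair. Their sum was lower in every treated library, at 10129 and 9870 in the ET-3 pair, and 8880 and 8543 in the NT pair. Single markers went in opposite directions. Pax7 rose from 857 and 1070 to between 1599 and 1754, whereas Cdh15 fell from 1547 and 1746 to between 436 and 496. Markers of other cell types were low for fibroadipogenic cells (57 to 90 scaled reads over 4 genes) and macrophages (21 to 45 over 3 genes). The endothelial list summed to 12 and 24 with DMSO and to 85 to 107 with a ligand, of which Tek gave 42 to 70. Within the ET-3 pair and the NT pair the mean chi-square per gene against counting noise was 0.894 and 0.958, and within the DMSO pair 1.46, so the libraries of a treated pair differed by about counting noise. Every library was used as 1 sample, and for the 10 factors the calls lost on averaging the libraries of a treated pair are named with the gene.

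Of the 10 factors, 7 were measured well enough to be tested and 3, Twist1, Twist2 and Msc, were close to absent. Sox8 fell 5.97-fold under ET-3 and 4.78-fold under NT, Zeb1 fell to 0.542 and 0.564 of its DMSO level, and Zeb2 fell to 0.788 and 0.794. Sox9 rose 1.70-fold under either ligand and Sox4 rose 1.53-fold with ET-3 and 1.497-fold with NT. Snai1 was 0.91-fold of DMSO under ET-3 and 0.998-fold under NT, and Snai2 was 0.909-fold of DMSO under ET-3 and 0.824-fold under NT. These ratios are those of the group means of scaled reads. The factors therefore did not move in 1 direction, and their values in each library are plotted first.

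**Figure D1:**
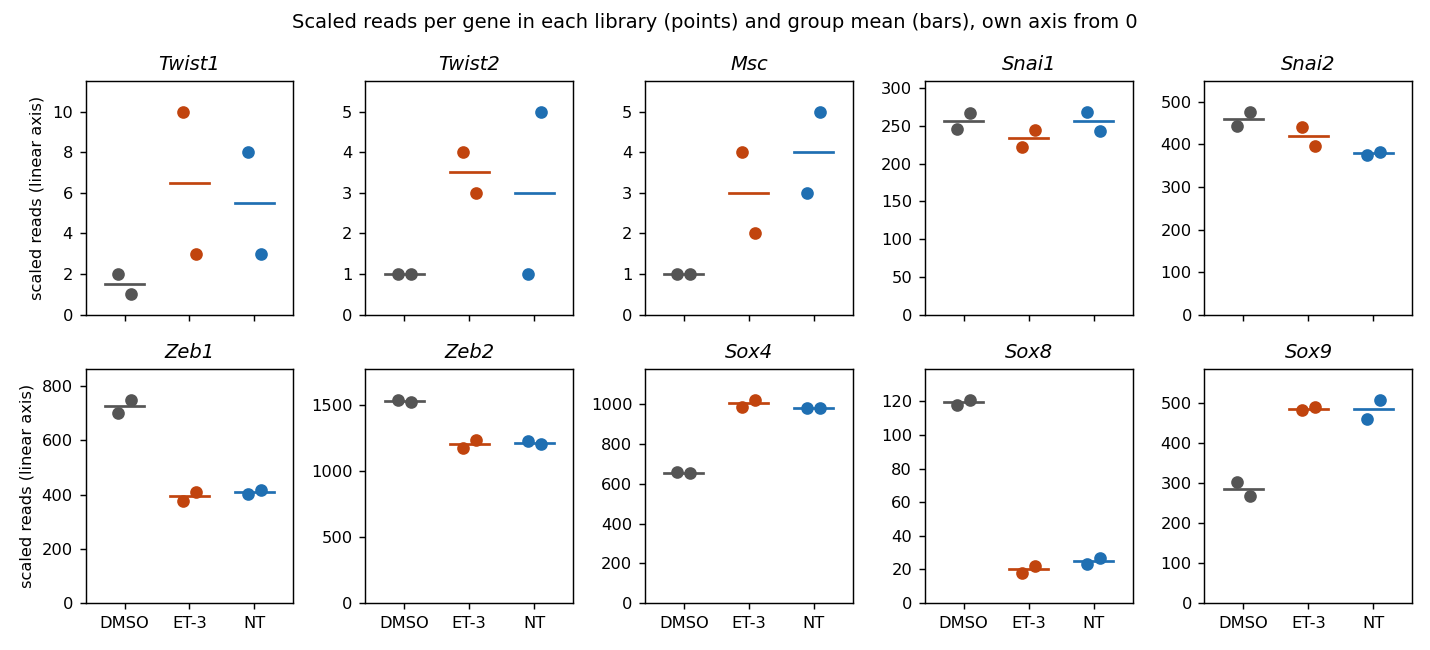
Scaled reads of the 10 factors in each of the 6 libraries (points) with the mean of each group of 2 libraries (horizontal bars), each gene on its own linear axis from 0. The 4 treated libraries lay between 18 and 27 for Sox8 against 118 and 121 with DMSO, whereas Snai1 lay between 222 and 269 in all 6 libraries.

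Values were tested as log2(value + 1) with limma, whose p-values were adjusted by the Benjamini-Hochberg procedure (BH) over the 13921 genes that averaged 5 scaled reads or more. Under ET-3, 5 of the 7 tested factors had a BH-adjusted p no greater than 0.05, as did 63.7% of all tested genes. Of these factors 2 were higher and 3 lower, where 30.6% of all tested genes were higher and 33.2% lower. Under NT 6 of the 7 passed, as did 62.2% of all tested genes, with 2 factors higher and 4 lower, where 29.7% of all tested genes were higher and 32.5% lower. With a fold change of at least 2 in addition, Sox8 alone was called, as lower under each ligand, which is 14.3% of the 7. Among all tested genes 21.5% were called under ET-3 (14.9% lower) and 20.5% under NT (13.2% lower). In 6 of the 7 tested factors the 4 treated libraries did not overlap the 2 DMSO libraries, and this held for 69.6% of all tested genes. The shares of the factors thus lay near those of all genes, and what follows describes the individual members. The median log2 fold change of the 7 was -0.14 for ET-3 and -0.28 for NT, beside -0.01 and -0.01 over all tested genes. With libraries scaled to their totals instead, the median over all tested genes moved up by 0.09 for ET-3 and 0.11 for NT, so changes of that size have no firm direction. The 2 comparisons share the DMSO libraries, and their values are given side by side for that reason.

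Sox8 showed the largest change of the 7 tested factors. The gene (ENSMUSG00000024176) lies on chromosome 17 of GRCm38, 25565892 to 25570686, on the minus strand, and encodes a SOXE protein, the subgroup it shares with SOX9. Its scaled reads were 118 and 121 in the DMSO pair, 18 and 22 in the ET-3 pair, and 23 and 27 in the NT pair. All 4 treated libraries lay far below both DMSO libraries, and the treated groups did not overlap either. On the log2 scale ET-3 lowered it by a fold change of -2.53 and NT by -2.22 (SE 0.21, limma BH adjusted p = 3.13e-06 and 8.51e-06). At 18 to 27 scaled reads the counting error of a treated library was 17.0% to 25.7%. NT and ET-3 differed by 0.31 on the log2 scale (95% interval -0.16 to 0.78, limma BH adjusted p = 0.452). The antisense transcript 2810468N07Rik, which shares 10.6% of the exonic bases of Sox8, had 13 to 24 scaled reads in every library. SOX8 is also made by glial cells, and the summed Schwann cell list went from 1502 and 1559 with DMSO to 93 to 140 with a ligand. Most of that sum was Erbb3, while the defining marker Foxd3 was near 0 (0 to 2) in every library. In these bulk libraries, fewer cells that express a gene and less RNA per cell cannot be told apart.

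The 250 bases before the start of Sox8, of Sox4 and of Snai1 are shown for comparison because the first fell, the second rose and the third showed no change that passed the test, and that of Myog because it encodes myogenin, the differentiation factor that the repressors are known to hold back. The sequences are those of RefSeq on GRCm38.p6, 5′ to 3′ on the strand of the gene, and capitals mark each E box (CANNTG, the same word on both strands). Sox8 (chr17:25570687-25570936, minus strand), Sox4 (chr13:28953700-28953949, minus strand), Snai1 (chr2:167537945-167538194, plus strand) and Myog (chr1:134289754-134290003, plus strand) read as follows.
Sox8: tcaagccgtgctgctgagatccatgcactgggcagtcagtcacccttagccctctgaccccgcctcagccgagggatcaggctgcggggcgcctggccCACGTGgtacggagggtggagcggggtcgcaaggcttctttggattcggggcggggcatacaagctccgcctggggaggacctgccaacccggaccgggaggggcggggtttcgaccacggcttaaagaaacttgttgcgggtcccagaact
Sox4: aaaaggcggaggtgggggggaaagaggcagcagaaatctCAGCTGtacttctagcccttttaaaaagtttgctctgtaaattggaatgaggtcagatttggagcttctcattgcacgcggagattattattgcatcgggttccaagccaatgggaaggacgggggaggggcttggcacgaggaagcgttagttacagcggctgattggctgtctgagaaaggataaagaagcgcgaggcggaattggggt
Snai1: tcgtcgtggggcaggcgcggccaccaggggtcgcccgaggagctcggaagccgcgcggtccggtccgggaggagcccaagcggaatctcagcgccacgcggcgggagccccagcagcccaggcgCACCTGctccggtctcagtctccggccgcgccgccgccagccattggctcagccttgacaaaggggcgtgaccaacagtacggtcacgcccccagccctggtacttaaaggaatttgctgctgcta
Myog: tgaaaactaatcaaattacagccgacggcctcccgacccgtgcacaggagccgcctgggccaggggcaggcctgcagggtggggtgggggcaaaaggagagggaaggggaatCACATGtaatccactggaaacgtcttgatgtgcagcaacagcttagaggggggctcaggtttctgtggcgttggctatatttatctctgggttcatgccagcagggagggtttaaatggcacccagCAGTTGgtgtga
Sox8 holds 1 E box, CACGTG, which begins 152 bases before the start, and Sox4 holds 1, CAGCTG, 211 bases before. Snai1 holds CACCTG 126 bases before its start, which is CAGGTG on the other strand and thus the core word of Snail and Zeb proteins. Myog holds CACATG and CAGTTG, 138 and 12 bases before the start. Of 32851 windows of 250 bases before starts, 66.2% hold a CANNTG word, 17.2% hold CAGGTG or CACCTG, and 13% hold CAGCTG, both of which are among the CANNTG words. The windows of Twist1 and Twist2 and the 4 windows of Zeb2 hold no CANNTG word. The SOX word ACAATG or CATTGT, which 10.7% of the windows hold, is in none of the windows of these 6 factors or of Myog. These are matches of letters, and no binding was measured.

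Sox9 rose. It encodes the second SOXE protein of the set, best known as a driver of cartilage, and lies on chromosome 11, 112782224 to 112787760 (ENSMUSG00000000567). Its scaled reads were 302 and 268 in the DMSO pair, 481 and 490 in the ET-3 pair, and 460 and 508 in the NT pair. Every treated library lay above both DMSO libraries. The rise amounted to a log2 fold change of 0.77 for ET-3 and 0.76 for NT (SE 0.07, limma BH adjusted p = 8.31e-06 and 9.28e-06), and NT and ET-3 differed by -0.01 (95% interval -0.17 to 0.16). When the libraries of each treated pair were averaged, the call was lost (limma BH adjusted p = 0.0519 for ET-3 and 0.0551 for NT). Those were the highest limma BH adjusted p of Sox9 over the alternatives, and the lowest were 3.44e-07 and 3.94e-07.

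The opposite changes of the SOXE pair altered their ratio. Per exonic kilobase, Sox9 stood at 1.93 and 1.67 times the level of Sox8 in the DMSO libraries. The ratio was 20.1 and 16.8 in the ET-3 libraries, and 15.1 and 14.2 in the NT libraries. A ratio within a library does not depend on the scaling between libraries, and all 4 treated libraries lay above both DMSO libraries. It was 10.2-fold higher under ET-3 and 8.15-fold higher under NT as a ratio of geometric means. With 2 libraries against 2, an exact permutation test cannot give a two-sided p below 0.333, which is the value it gave for each ligand.

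Sox4, which encodes a SOXC protein, had the narrowest spread within the groups relative to its level. It has a single exon on chromosome 13, 28948919 to 28953713, minus strand (ENSMUSG00000076431). Its scaled reads were 658 and 653 in the DMSO pair, 988 and 1024 in the ET-3 pair, and 982 and 980 in the NT pair. Both ligand groups lay above DMSO without overlap. Log2 fold changes were 0.62 for ET-3 and 0.58 for NT (SE 0.04, limma BH adjusted p = 1.03e-06 and 1.7e-06). NT and ET-3 differed by -0.04 (95% interval -0.13 to 0.06). An antisense transcript, Gm26735, covers 54.6% of the Sox4 exon, and the sources used here do not state whether reads were counted by strand. Reads from this stretch therefore cannot be assigned with certainty. According to the paper, reads overlapping several genes were left out, so the level of Sox4 may be too low if strand was ignored.

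**Figure D2:**
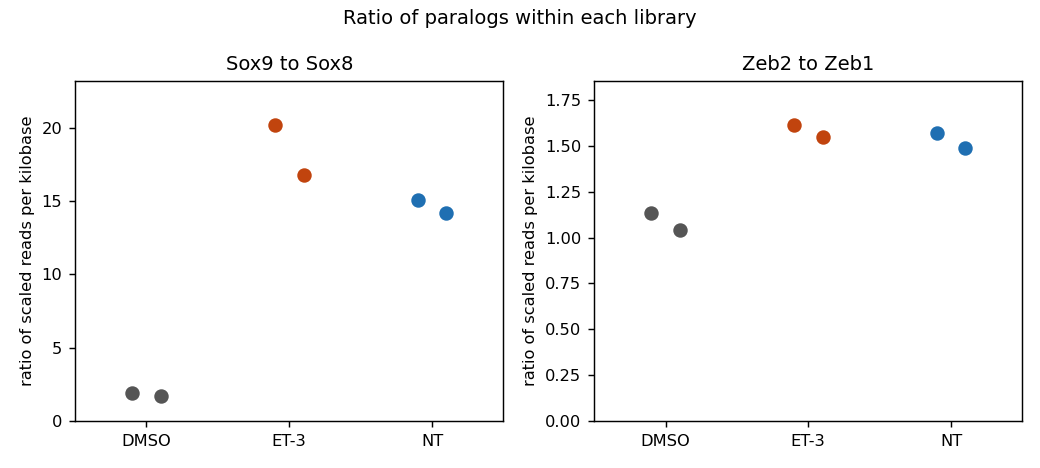
Ratio of scaled reads per exonic kilobase of Sox9 to Sox8 (left) and of Zeb2 to Zeb1 (right) in each library (points, 2 per group, linear axes from 0). The Sox9 to Sox8 ratio lay at 14.2 to 20.1 in the treated libraries against 1.67 and 1.93 with DMSO, and the Zeb2 to Zeb1 ratio at 1.49 to 1.61 against 1.04 and 1.13.

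Zeb1 and Zeb2 encode large zinc finger and homeodomain repressors that bind pairs of E boxes. Zeb1 (ENSMUSG00000024238, chromosome 18, 5591860 to 5775467) had 701 and 750 scaled reads in the DMSO pair, 375 and 411 in the ET-3 pair, and 402 and 417 in the NT pair. The treated libraries lay close together and well below both DMSO libraries. Zeb1 thus fell with a log2 fold change of -0.88 for ET-3 and -0.82 for NT (SE 0.06, limma BH adjusted p = 1.02e-06 and 1.82e-06), short of the 2-fold threshold. ZEB1 is known to repress muscle genes in myoblasts until differentiation sets in.

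Zeb2 (ENSMUSG00000026872, chromosome 2, 44983632 to 45117395, minus strand) gave more scaled reads per gene than any other member. They were 1541 and 1520 in the DMSO pair, 1174 and 1238 in the ET-3 pair, and 1226 and 1204 in the NT pair. The groups treated with a ligand overlapped each other and lay below DMSO. Its log2 fold changes, -0.34 for ET-3 and -0.33 for NT (SE 0.04), were the smallest that passed under both ligands (limma BH adjusted p = 6.96e-05 and 9.19e-05). Zeb1 fell further than Zeb2, with 95% intervals of -1.02 to -0.74 and -0.44 to -0.25 under ET-3 and of -0.96 to -0.68 and -0.43 to -0.24 under NT, which did not overlap. The Zeb2 to Zeb1 ratio per exonic kilobase was 1.13 and 1.04 in the DMSO pair, 1.61 and 1.55 in the ET-3 pair, and 1.57 and 1.49 in the NT pair, and the exact permutation test of this ratio again gave the smallest two-sided p possible with 2 against 2, 0.333. The antisense transcript Zeb2os, which shares 3.3% of the exonic bases of Zeb2, had 51 and 68 scaled reads in the DMSO pair, 18 and 16 in the ET-3 pair, and 18 and 22 in the NT pair. Its values were looked up because of this overlap, after the values of Zeb2 had been seen.

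The Snail factors changed least among the tested members. Snai1 (ENSMUSG00000042821, chromosome 2, 167538195 to 167542814), which encodes the founding mouse Snail repressor, had 246 and 267 scaled reads in the DMSO pair, 222 and 245 in the ET-3 pair, and 269 and 243 in the NT pair. The NT libraries overlapped both other groups, and the ET-3 libraries lay just under DMSO, with 245 beside 246. Neither ligand gave a change that passed, with a log2 fold change of -0.14 for ET-3 (95% interval -0.32 to 0.05, limma BH adjusted p = 0.185) and -0.0035 for NT (-0.19 to 0.18, limma BH adjusted p = 0.975). The intervals fall well short of a 2-fold change, and changes within them were not detectable with 2 libraries per group.

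Snai2 (ENSMUSG00000022676, chromosome 16, 14705852 to 14709385) encodes Slug, which is known to occupy E boxes of differentiation genes in myoblasts and keep MYOD from them. It had 444 and 477 scaled reads in the DMSO pair, 441 and 396 in the ET-3 pair, and 376 and 383 in the NT pair. The NT libraries lay below those of both other groups, and the ET-3 libraries lay just under DMSO, with 441 beside 444. Snai2 was lower by a log2 fold change of -0.28 under NT (SE 0.07, limma BH adjusted p = 0.00451), whereas the value for ET-3, -0.14, did not pass (limma BH adjusted p = 0.0931). NT and ET-3 differed by -0.14 (95% interval -0.29 to 0.01, limma BH adjusted p = 0.284), so the ligands were not shown to differ. The call under NT was lost without the second DMSO library (limma BH adjusted p = 0.08), without the first NT library (0.0511) and with averaged treated pairs (0.11). Its limma BH adjusted p spanned 0.00211 to 0.11 over the alternatives. Without the first ET-3 library, the ET-3 value passed (-0.22, limma BH adjusted p = 0.0425), where the other alternatives reached up to 0.521.

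**Figure D3:**
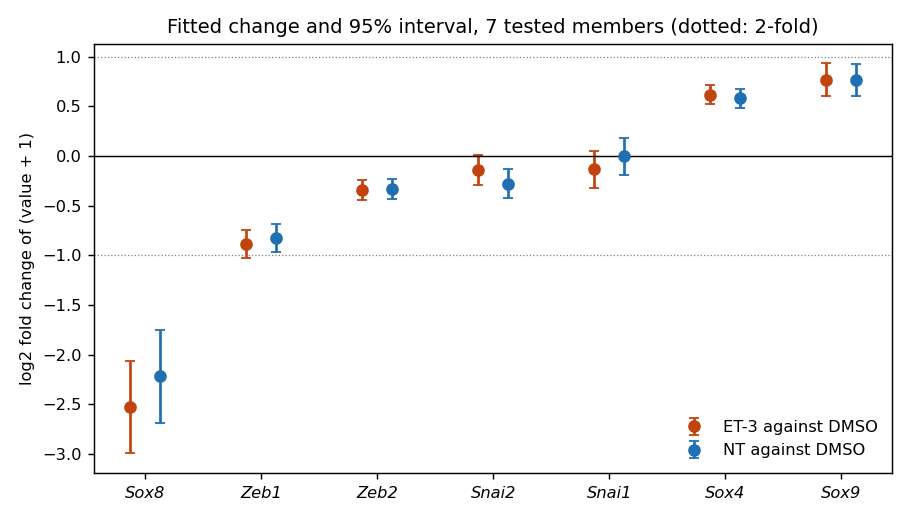
Log2 fold change of value + 1 against DMSO for the 7 tested factors under ET-3 (red) and NT (blue), with 95% intervals from limma (bars) and dotted lines at a 2-fold change. Sox8 lies at -2.53 and -2.22, beyond the line, Zeb1 at -0.88 and -0.82, and Sox4 and Sox9 between 0.58 and 0.77.

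Twist1, Twist2 and Msc had mean values of 4.5, 2.5 and 2.67 scaled reads, below the minimum of 5, and were not tested in the main fit. TWIST1 and TWIST2 are bHLH proteins of mesenchyme that bind MEF2 and E proteins, and musculin, also called MyoR, is a bHLH repressor of myoblasts. Twist1 (ENSMUSG00000035799, chromosome 12) had 2 and 1 scaled reads in the DMSO pair, 10 and 3 in the ET-3 pair, and 8 and 3 in the NT pair. Twist2 (ENSMUSG00000007805, chromosome 1) had 1 and 1, 4 and 3, and 1 and 5. Msc (ENSMUSG00000025930, chromosome 1) had 1 and 1, 4 and 2, and 3 and 5. The treated libraries of Twist1 and Msc lay above DMSO and those of Twist2 overlapped it, all within a few reads.

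With DMSO these genes gave 3, 2 and 2 reads in all after division by the factors. The ratio to DMSO for Twist1 was 3.95 under ET-3 (95% exact interval 1.04 to 22.1, which covers counting error only) and 3.34 under NT (0.92 to 18.3). For Msc it was 2.69 (0.44 to 28.3) and 3.86 (0.82 to 36.2), and for Twist2 3.23 (0.58 to 32.7) and 2.70 (0.51 to 26.6). When the low-value filter was dropped, none of these 3 genes passed in limma over all 18943 genes, where their BH adjusted p against DMSO was 0.0559 to 0.323. Of the 6 intervals, that of Twist1 under ET-3 alone lies above 1, and its libraries, 10 and 3, differ widely. No change in these 3 genes passed at this depth. Antisense transcripts cover 46.5% of the exonic bases of Twist2 (Gm29100) and 21.2% of those of Msc (Gm9947). The paper states that reads overlapping several genes were left out, so these levels may be too low if strand was ignored in counting.

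Levels were compared between genes per exonic kilobase, with the exons of all annotated transcripts merged, which lowers the level of genes with many isoforms such as Zeb2 (29 transcripts, 19942 bases). The levels and ranks of Sox4, Twist2 and Msc carry the limit of the antisense overlap given above. With DMSO the order was Snai2 (219.7 and 236.0 scaled reads per kilobase), Snai1 (152 and 165), Sox4 (137 and 136), Zeb2 (77.3 and 76.2), Zeb1 (68.3 and 73.1), Sox9 (73.0 and 64.8) and Sox8 (37.8 and 38.8). Zeb1 and Sox9 overlapped, and the other neighbours in this order did not. Twist1, Msc and Twist2 lay at or below 1.23 scaled reads per kilobase. Snai2 stood above 96.1% of the genes with a known length, and Sox8 above 60.1%.

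With ET-3 the order changed. Sox4 (206 and 214 scaled reads per kilobase) stood level with Snai2 (218 and 196), their values overlapping, and Sox9 (116 and 119) moved above both Zeb factors. Sox8, at 5.77 and 7.06 scaled reads per kilobase, was the lowest of the 7 tested members. With NT, Sox4 (205 and 204) lay above Snai2 (186 and 190) without overlap, followed by Snai1 (166 and 150.0), Sox9 (111 and 123), Zeb2 (61.5 and 60.4), Zeb1 (39.2 and 40.6) and Sox8 (7.38 and 8.66).

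Per exonic kilobase, the families shifted against each other while the groups overlapped in the sum of all 10 members. Snai1, Snai2, Zeb1 and Zeb2 together had 517 and 550 scaled reads per kilobase in the DMSO pair, 451 and 449 in the ET-3 pair, and 453 and 440 in the NT pair. Sox4, Sox8 and Sox9 together had 248 and 240 in the DMSO pair, 328 and 339 in the ET-3 pair, and 323 and 336 in the NT pair. The sum of all 10 was 767 and 791 in the DMSO pair, 788 and 792 in the ET-3 pair, and 783 and 782 in the NT pair, so that DMSO overlapped ET-3 and NT. Without division by length, which gives more weight to the long Zeb2, the summed scaled reads were 4014 and 4059 (DMSO), 3717 and 3834 (ET-3), and 3750 and 3775 (NT), lower in all 4 treated libraries. As a share of the library's sum the groups overlapped, at 878 and 882 ppm for DMSO, 860 and 892 (ET-3), and 879 and 896 (NT). The Snail genes remained the larger part of the summed Snail and Zeb level, and Sox4 the larger part of the Sox level, in every library. These sums were formed after the members' values had been seen and were not tested.

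**Figure D4:**
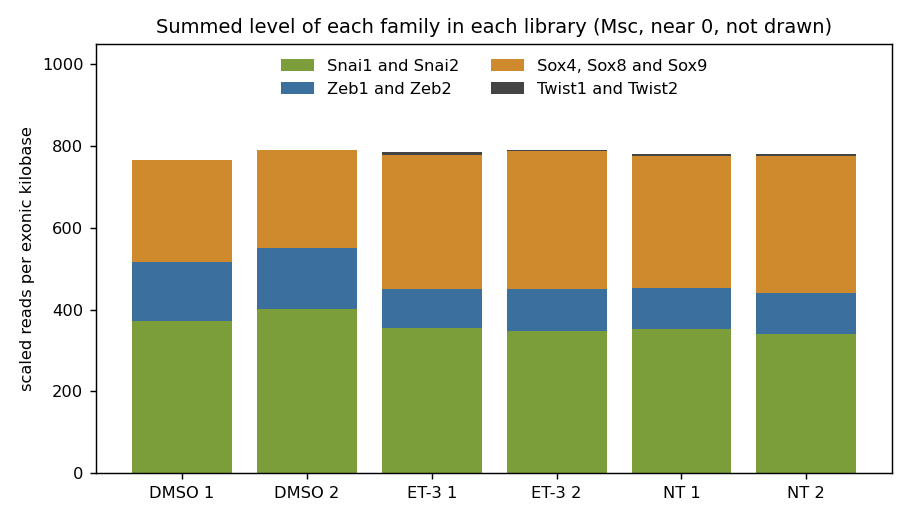
Scaled reads per exonic kilobase summed over the Snail (green), Zeb (blue), Sox (orange) and Twist (black) members in each library, stacked from 0, with Msc left out. The Sox part grew from 248 and 240 with DMSO to between 323 and 339 with a ligand, the Zeb part shrank from 146 and 149 to between 95.4 and 102, and the sum of all 10 factors lay between 767 and 792.

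No tested factor was shown to differ between the ligands. In the direct test of NT against ET-3, 0 of the 7 passed after BH adjustment in limma and 0 had an unadjusted p under 0.05, while 2.69% of all tested genes passed after adjustment and 0.0790% also reached 2-fold. These genes fell to 0 when any library was left out, with the replicate number as a block, without the low-value filter and with only the ligand groups in the fit, where 1452 to 3110 genes had an unadjusted p under 0.05 in limma. The widest interval was that of Sox8, -0.16 to 0.78 on the log2 scale, and the narrowest that of Sox4, -0.13 to 0.06. Differences within these intervals cannot be told from none with 2 libraries per ligand.

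For each member with a mean of at least 100 scaled reads, the 3 genes with the most similar profile were listed by the root mean square difference of centred log2 values over the 6 libraries. Closest to Zeb1 were Slc7a7, Kdm5b and Mgrn1 (0.023 to 0.026). Those of Zeb2 were Timm22, Abhd13 and Supt6 (0.018 to 0.023). Utp4, Mpp6 and Nup188 (0.015 to 0.021) were closest to Sox4, and Ttc27, Frrs1 and Cenpn (0.016 to 0.034) to Sox9. Snai2 lay closest to Skp1a, Ctsz and Pcdhgc3 (0.016 to 0.023), and Snai1 to Aar2, Setd2 and Caskin2 (0.033 to 0.037). With 3 groups of 2, many genes share such a profile.

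Among 16 other Sox genes, 9 had values and 5 were tested. After BH adjustment in limma, 3 were higher and 1 lower under each ligand (median log2 fold change 0.42 under ET-3 and 0.48 under NT). Of all tested genes, 30.6% were higher and 33.2% lower under ET-3, and 29.7% and 32.5% under NT. SOX5 and SOX6 are SOXD proteins without an activation domain of their own, and SOX6 is known to repress slow fiber genes in muscle. Sox6 fell from 231 and 221 scaled reads with DMSO to 5 and 9 (ET-3) and 9 and 16 (NT). Sox5 rose from 4 and 6 to 17 and 15, and 21 and 23. Sox13, the third SOXD gene, rose from 30 and 24 to 42 to 56 with a ligand, and the SOXC gene Sox12 from 271 and 238 to 337 to 366. Sox11, another SOXC gene, had 1054 to 1204 scaled reads in all libraries and did not pass. With averaged treated pairs, Sox6 alone of these genes passed. Sox11 and Sox12 were named after their values were seen. Of the other Snail genes, Snai3 had 16 and 11 scaled reads with DMSO and was listed at 0 in all 4 treated libraries, and with a mean below the minimum it was not tested.

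**Figure D5:**
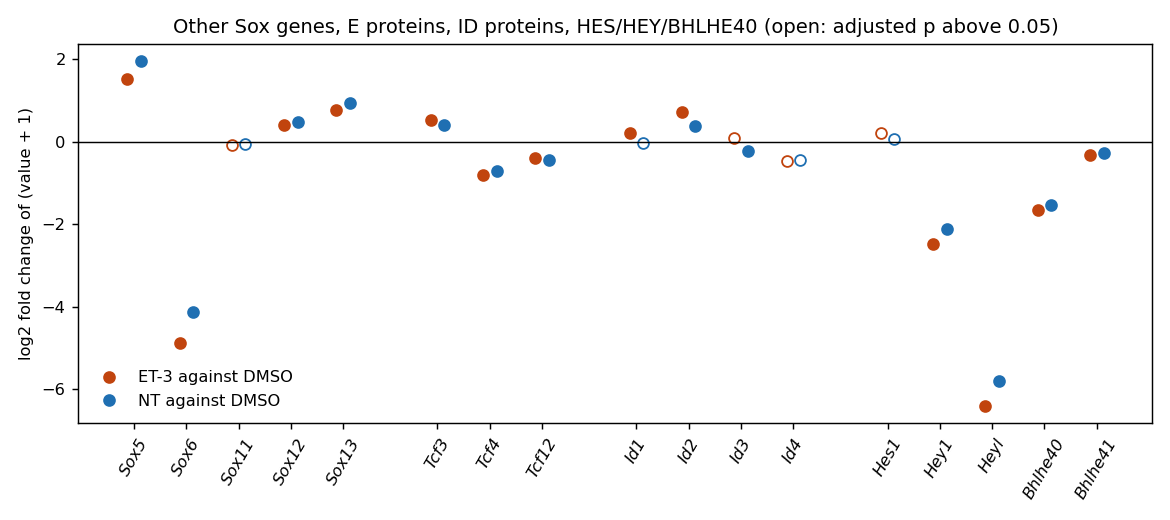
Log2 fold change of value + 1 against DMSO under ET-3 (red) and NT (blue) for the tested members of 4 lists, other Sox genes, E proteins, ID proteins and HES, HEY and BHLHE40 repressors (filled where the limma BH adjusted p passed). Sox6 lies at -4.87 and -4.12 and Heyl at -6.41 and -5.80, whereas the ID and E protein genes lie between -0.81 and 0.72.

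The dimer partners of Twist proteins and musculin did not move together either. Tcf3, which encodes E12 and E47, rose from 670 and 694 scaled reads to 1000 and 961 (ET-3) and 922 and 888 (NT). Tcf4 fell from 1429 and 1412 to 808 and 814, and 893 and 843, and Tcf12 from 1412 and 1429 to between 1021 and 1091. ID proteins lack a DNA-binding region and sequester E proteins. Id2 rose by 0.72 on the log2 scale with ET-3 and 0.40 with NT, and NT differed from ET-3 (-0.33 for NT against ET-3, limma BH adjusted p = 0.0379). This last call passed in 6 of 15 alternatives, with a limma BH adjusted p of up to 0.459. Id1 rose under ET-3 (0.22) and was at -0.02 under NT, and Id3 fell under NT (-0.22) and was at 0.09 under ET-3. Both of these calls were lost with averaged treated pairs. NT against ET-3 did not pass for Id1 or Id3 (limma BH adjusted p = 0.106 and 0.0628). Id4, at -0.47 and -0.44, did not pass against DMSO under either ligand.

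Of the HES, HEY and BHLHE40 repressors, which are bHLH proteins with an Orange domain and in part targets of Notch, 4 of 5 tested genes were lower under each ligand (median log2 fold change -1.67 and -1.54), where 33.2% and 32.5% of all tested genes were lower. Heyl fell from 382 and 566 scaled reads to between 4 and 9, Hey1 from 279 and 353 to between 54 and 77, and Bhlhe40 from 530 and 448 to between 150 and 167. Of 15 corepressor genes, 9 were higher and 2 lower under ET-3, and 6 higher and 2 lower under NT (median log2 fold change 0.14 and 0.03). Of all tested genes, 30.6% were higher and 33.2% lower under ET-3, and 29.7% and 32.5% under NT. Tle1, Sin3a and Ctbp2 showed the largest changes that passed in both comparisons. Ctbp2, whose protein is recruited by ZEB factors, had 329 and 340 scaled reads in the DMSO pair, 542 and 523 in the ET-3 pair, and 473 and 504 in the NT pair. The bHLH gene Scx, the only tested member of 11 other Twist-type genes, fell from 575 and 623 to between 331 and 396.

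Most of the myogenic activators that these repressors are known to oppose were lower. Of 9 genes, 7 were lower with ET-3 and 8 with NT, where 33.2% and 32.5% of all tested genes were, and none passed as higher (median log2 fold change -0.68 under both). Mef2c fell from 1927 and 1930 scaled reads to between 8 and 12, and Myf6, which encodes MRF4, from 143 and 121 to between 8 and 15. Myog fell from 1157 and 1335 to between 28 and 38. Both ligands also lowered Mef2a and Mef2d, with log2 fold changes of -0.68 to -0.91. Myod1 itself was at 0.11 under ET-3, which did not pass, and -0.27 under NT, Myf5 at -0.08, which did not pass, and -0.26, and Six4 at -0.15 and 0.11, of which the second did not pass. For Myod1 and Six4 the direct test of NT against ET-3 gave -0.38 and 0.26 (limma BH adjusted p = 0.0379 for both), and each call passed in 6 of 15 alternatives, with a limma BH adjusted p of up to 0.459.

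Of 15 epithelial genes that Snail and Zeb proteins are known to repress elsewhere, 9 had values. The 3 that passed the low-value filter were tested, and these were higher under both ligands, where 30.6% and 29.7% of all tested genes were. Dsp, which encodes desmoplakin, rose from 7 and 5 scaled reads to between 31 and 45, Krt18 from 7 and 2 to between 17 and 36, and Cldn4 from 257 and 272 to between 395 and 496. The Krt18 call was lost with averaged treated pairs, and Krt18 reached the minimum mean of 5 only through its treated libraries. Of the genes below the filter, which keeps low genes that are high in the treated libraries, Esrp2 had 6 and 8 scaled reads with DMSO and 1 to 2 with a ligand, and Cldn1 had 5 and 10 (DMSO), 0 and 1 (ET-3) and 5 and 2 (NT). Cdh1, the best known of these targets, had 0 to 3 scaled reads in every library. Of 11 mesenchymal genes, 8 were lower and none higher under each ligand (median log2 fold change -0.65 and -0.55), where 33.2% and 32.5% of all tested genes were lower, with Col1a1 (148 and 146 to between 2 and 8), Cdh11 (838 and 901 to between 298 and 373) and Mmp14 (485 and 582 to between 183 and 251) changing most. Of 11 cartilage genes known as SOX9 targets, Col11a2 alone was tested and fell from 203 and 229 to between 16 and 19, while Col2a1 had 0 to 4 scaled reads. Beside these lists, the smooth muscle and pericyte marker sum went from 2356 and 2815 with DMSO to between 748 and 925 with a ligand, with called falls of Notch3 (1397 and 1773 to between 284 and 409), Pdgfrb (227 and 278 to between 3 and 13) and Rgs5 (117 and 150 to between 2 and 5). Its markers Myh11 (0 to 4) and Kcnj8 (0 to 2) were near 0 in every library, and its part in these results was not tested.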

How the data were processed

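RNA-seq was available for 6 libraries, 2 per group, and the labels gave each library its group. Per the paper, the authors trimmed reads of 75 bases, aligned them with STAR (mm10, that is GRCm38) and used featureCounts to count exonic reads. The submitters' processing notes also name Trimmomatic 0.38, STAR 2.7.7a, featureCounts 1.6.5 and DESeq2 1.30.0. The paper names a stranded kit and the labels the SMART-Seq HT kit. The deposited values are a read signal, whole numbers that are counts times 1 factor per library. In the second DMSO library and the ET-3 libraries 13, 16 and 8 whole numbers below 100 cannot be reached by any read count, and 0 genes lay at them. Factors of the other libraries came from the pattern of rare and frequent whole numbers. Since rounding merges neighbouring counts where the factor is below 1, raw counts could not be recovered and no count model was run.

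Values were tested as deposited with limma 3.58.1 in R 4.3.3 (lmFit, eBayes with trend) on log2(value + 1), for 13921 genes with a mean of at least 5, with Benjamini-Hochberg adjustment. Fold changes on this scale understate changes of low genes. Genes passed at an adjusted p of 0.05 or less, and were called at 2-fold where this is stated. On data simulated for ET-3 against DMSO (13917 genes tested) 199 of 200 changed genes were recovered, with 3 false calls. This share holds for those 200 genes only. Recovery of changes as small as those of Zeb1, Zeb2, Sox4, Sox9, Snai1 and Snai2 was not tested. Exonic lengths and overlapping genes came from GENCODE M21, which matched 18920 genes, and sequences from RefSeq (GRCm38.p6), which matched 6 of the 10 members. The members and lists were chosen with earlier results of these data known. Named genes were the members, the 3 genes per list with the largest mean change past the threshold in both ligand comparisons, all E protein, ID and myogenic genes tested, cell type markers, and the 3 most similar genes per member. Some genes that this rule names are not reported here. Python 3.11.15 prepared tables and plots. Alternatives covered scaling, pseudocount, filter, voom weights, a replicate block, fits of 2 groups, averaged treated pairs and each library left out.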

Additional observations from a re-analysis of the deposited data

How the results depend on the processing

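With 2 libraries per group, the precision is limited to a median standard error of 0.10 on the log2 scale, and members under 5 scaled reads cannot be judged. The number of factors called at 2-fold was 1 under each ligand and 0 between the ligands in every alternative, and the number past the BH-adjusted threshold ranged from 4 to 6 under either ligand and was 0 between them. Of 329 values of single members under an alternative, 313 kept their direction and side of the threshold. Sox8, Zeb1, Zeb2 and Sox4 kept both under ET-3 and NT in all alternatives run, and their highest limma BH adjusted p was 0.0439. The averaged pairs could not be used for NT against ET-3. Over all genes, averaging reduced the genes passing under ET-3 to 1467 higher and 2530 lower, and under NT to 1275 and 2182. In the related lists it left 4 of 11 mesenchymal genes, 5 of 9 myogenic activators and 5 of 15 corepressors under each ligand.

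The value of Snai1 under NT, near 0, turned positive when libraries were scaled to their total (0.1092) or upper quartile (0.0394), and ranged from -0.0765 to 0.0696 with a library left out. For NT against ET-3, Sox9 was 0.0177 with library totals and ranged from -0.0776 to 0.0653, Zeb1 from -0.0055 to 0.1264 and Zeb2 from -0.0271 to 0.0494 with a library left out. The cause was not tested. The labels share replicate numbers between groups, but nothing marks a shared culture. The differences between the libraries of a group correlated at -0.01, -0.07 and -0.02 between groups. With the replicate number as a block, 5 factors differed under ET-3, 6 under NT and 0 between the ligands after BH adjustment, with 1, 1 and 0 called at 2-fold, as without it.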
